A study of Homo sapiens with 16 samples.

Results

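The comparison set the HOXB13 binding sites of LNCaP cells against those found after HOXB13 had been targeted by an shRNA and wild-type HOXB13 (HOXB13-WT) had been put back. All peaks of both HOXB13 ChIP-seq lists were members: 91430 peaks of the control library and 190879 of the HOXB13-WT library, 282309 of the 816313 peaks in the 12 lists of the series. A control peak was called restored where a HOXB13-WT peak overlapped it by 1 bp or more and not restored otherwise, and a HOXB13-WT peak that met no control peak was called additional. LNCaP is an androgen-sensitive prostate cancer line. Control cells carried the control shRNA vector pGIPZ. The re-expression cells carried a HOXB13 shRNA and, at the same time, a HOXB13-WT lentivirus. Infection lasted 7 days in LNCaP cells, and the same Abcam antibody to HOXB13 was used for both libraries. Lists used beside them came from LNCaP control cells (ATAC-seq, HDAC3, HDAC1), LNCaP cells with the HOXB13 shRNA alone (HOXB13, HDAC3, ATAC-seq), LNCaP cells with the shRNA and HOXB13-G84E (HOXB13), and the androgen-independent prostate cancer line PC-3 with pGIPZ (HOXB13, H3K27ac) or the HOXB13 shRNA (H3K27ac). The PC-3 HOXB13 library was made with an antibody from another supplier. Every group held 1 library, so no test between conditions was possible, and all intervals are 95% intervals of counting error that treat peaks as independent. The labels do not say which promoter drove HOXB13-WT, whether the shRNA could act on its transcript, or how much protein it gave.

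HOXB13 is a posterior homeobox transcription factor that marks the prostate lineage and binds DNA through its homeodomain, often beside the androgen receptor and FOXA1 in prostate cells. Sites in open chromatin, which ATAC-seq maps by transposase cutting, are commonly enhancers and promoters, while many homeodomain factors also bind sites in closed chromatin. HDAC3 and HDAC1 are histone deacetylases of different corepressor complexes, and H3K27ac is a histone mark of active enhancers and promoters.

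The control library held 34363025 tags, 9.17% of them in peaks 290 bp wide, and the HOXB13-WT library 40272196 tags, 17.1% in peaks 274 bp wide. A peak's level is its normalized tag count, which counts its tags as if the library held 10000000. The calling threshold was 16 tags in the control, or 4.66 normalized tags, and 18 tags with HOXB13-WT, although listed counts went down to 12 tags in both. The calling program also removed candidate peaks that did not exceed their surroundings 4-fold, 22.0% of the candidates in the control and 25% with HOXB13-WT. A site not called was therefore not shown to be unbound. Only 0.675% of control peaks and 0.643% of HOXB13-WT peaks lay outside the autosomes and X.

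About 2 in 3 control sites had HOXB13 again after re-expression, and the sites that did not were mostly weak. Restored sites numbered 61639 of 91430, or 67.4% (95% CI 67.1 to 67.7), and 29791 control sites (32.6%) were not restored. Of the HOXB13-WT peaks 129240 of 190879, or 67.7% (95% CI 67.5 to 67.9), were additional. Each restored site met exactly 1 HOXB13-WT peak. In the control the median normalized tag count was 8.44 at restored sites, with 5.24 at the 5th and 23.9 at the 95th percentile. At sites not restored it was 6.40, with 4.66 and 10.5 at the same percentiles. In the HOXB13-WT library, peaks on control sites had a median of 9.93 (5th to 95th percentile 4.72 to 31.3) and additional peaks 5.96 (4.22 to 12.2). Both pairs of classes overlapped widely in level, and the upper tails lay furthest apart. The deposited fold over the surrounding 10 kb followed the same order, with medians of 7.33 at restored and 5.71 at not restored sites, and 8.80 on control sites and 6.25 at additional peaks.

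**Figure D1:**
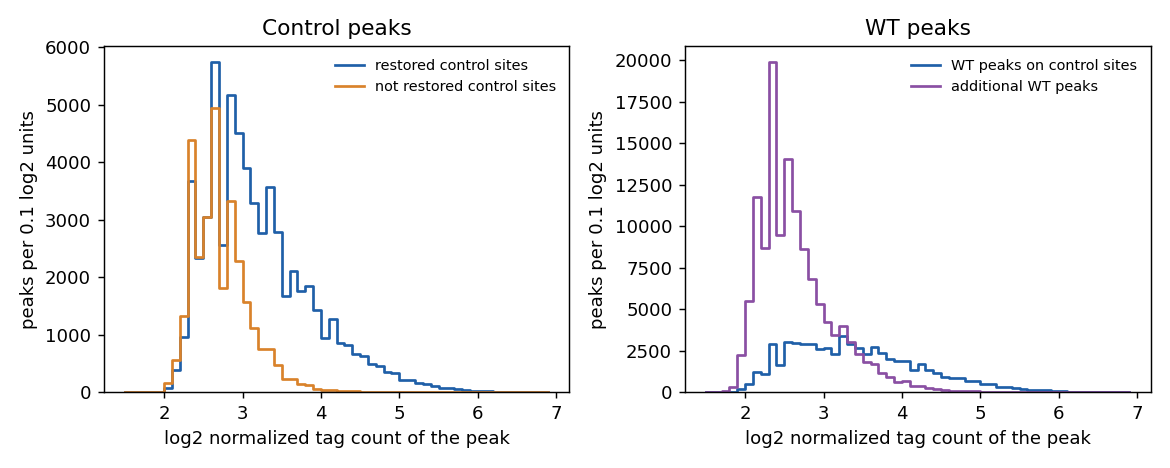
Number of peaks (vertical axis) by log2 normalized tag count (horizontal axis), for control peaks on the left and HOXB13-WT peaks on the right, 1 library each. The jagged steps come from whole tags. Not restored sites (median 6.40) and additional peaks (median 5.96) pile up at low counts, and restored sites (median 8.44) reach further to the right.

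The restored share climbed steadily with the level of the control peak. Control sites were divided into 10 groups by their whole tags, with 4371 to 11519 sites in each. In the weakest group (12 to 18 tags) 44.2% were restored, in the fifth (24 to 25 tags) 60.9%, in the ninth (40 to 53 tags) 91.5%, and in the strongest (54 tags or more) 97.8%. That left 195 of 8964 sites of the strongest group without an overlapping HOXB13-WT peak. The additional share was lower in each stronger group, with 90.9% where HOXB13-WT peaks were weakest and 15.2% where they had 62 tags or more. The returned peaks lay close to where they had been. Centres of restored pairs were a median of 39 bp apart, with 51 bp at the weakest and 24 bp at the strongest sites, and 84.4% were within 100 bp. At the edge of the overlap rule, where centres are 282 bp apart, 865 restored sites lay within 50 bp inside and 676 not restored sites within 50 bp outside, both with a median of 6.98 normalized tags.

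**Figure D2:**
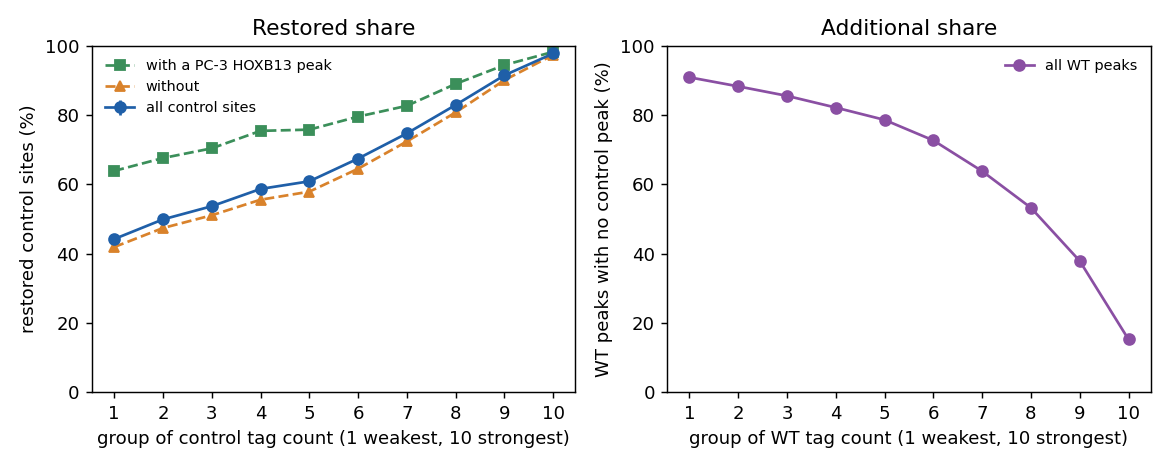
Left, percent of control sites restored (vertical) in 10 groups of control tag count (horizontal), for all sites with 95% intervals and for sites with and without a PC-3 HOXB13 peak. Right, percent of HOXB13-WT peaks that were additional, by group of HOXB13-WT tag count. The restored share goes from 44.2% to 97.8%, and the additional share from 90.9% to 15.2%.

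Occupancy by HOXB13 in a second prostate line went with restoration at every level. A PC-3 HOXB13 peak lay at 26.3% of restored and 10.2% of not restored sites, a difference of 16.2 percentage points (95% CI 15.7 to 16.7). With the sites standardised over the 10 groups of control tag count the difference was 10.0 points (9.17 to 10.9), and the restored sites had the higher share in 10 of 10 groups. In the weakest group 63.9% of the 1208 sites with a PC-3 peak were restored, against 41.9% of those without. In the strongest group the shares were 98.3% and 97.4%. Seen over all groups, 84.3% of the 19250 control sites with a PC-3 HOXB13 peak were restored (67.4% over all control sites) and 62.9% of the others. The HOXB13-G84E list differed more, with a peak at 80.5% of restored and 27.6% of not restored sites. Standardised, that difference was 47.2 points (46.2 to 48.1), with restored sites higher in 10 of 10 groups.

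Open chromatin and HDAC3 differed far less once level was held equal. An ATAC peak of the control cells lay at 12.1% of restored and 6.48% of not restored sites (difference 5.63 points, 95% CI 5.25 to 6.01). Standardised over control tag count the difference was -0.680 points (-1.47 to 0.106), with restored sites higher in 5 groups and lower in 5. For the ATAC list after knockdown it was -1.40 points (-2.16 to -0.649), lower in 7 of 10 groups. The direction changed with level. In the weakest group the ATAC share was 3.63% at restored and 3.05% at not restored sites, whereas in the ninth group it was 17.4% and 21.5%. For HDAC3 the shares were 16.1% and 7.90% (difference 8.16 points, 7.74 to 8.58), of which 2.06 points (1.27 to 2.84) were left after standardisation, with restored sites higher in 10 of 10 groups. The strongest group showed the widest gap, 38.8% against 28.2%. That group ran from 54 to 31381 tags, so level was not held equal within it. For HDAC3 after knockdown the standardised difference was -0.172 points (-0.894 to 0.551).

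HDAC1 went the other way. HDAC1 peaks lay at 1.93% of restored and 1.97% of not restored sites, a difference of -0.0381 points whose interval held 0 (-0.233 to 0.150). At equal level restored sites had less HDAC1, by -1.04 points (-1.46 to -0.620), and lower shares in 8 of 10 groups. Of the 1168 control sites with both ATAC and HDAC1 peaks 65.5% were restored, against 81.4% of the 8228 with ATAC and no HDAC1 (difference -15.9 points, -18.8 to -13.1). The sites with both peaks were weaker, with a median of 8.15 normalized tags against 11.3, and standardised over control tag count the difference was -6.30 points (-8.71 to -3.89), lower with HDAC1 in 10 of 10 groups. Without an ATAC peak, 69.9% of the 607 sites with HDAC1 and 66.0% of those without it were restored (difference 3.84 points, 0.0616 to 7.37). Here the sites with HDAC1 were the stronger ones (median 9.31 against 7.28), and standardised the difference turned to -7.50 points (-11.8 to -3.19), lower with HDAC1 in 7 of 10 groups. PC-3 H3K27ac regions covered 14.8% of restored and 12.4% of not restored sites, and standardised the difference turned to -2.51 points (-3.35 to -1.67). Sites still called after knockdown were 1.57% of restored and 1.29% of not restored sites, and standardised -1.16 points (-1.65 to -0.676).

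**Figure D3:**
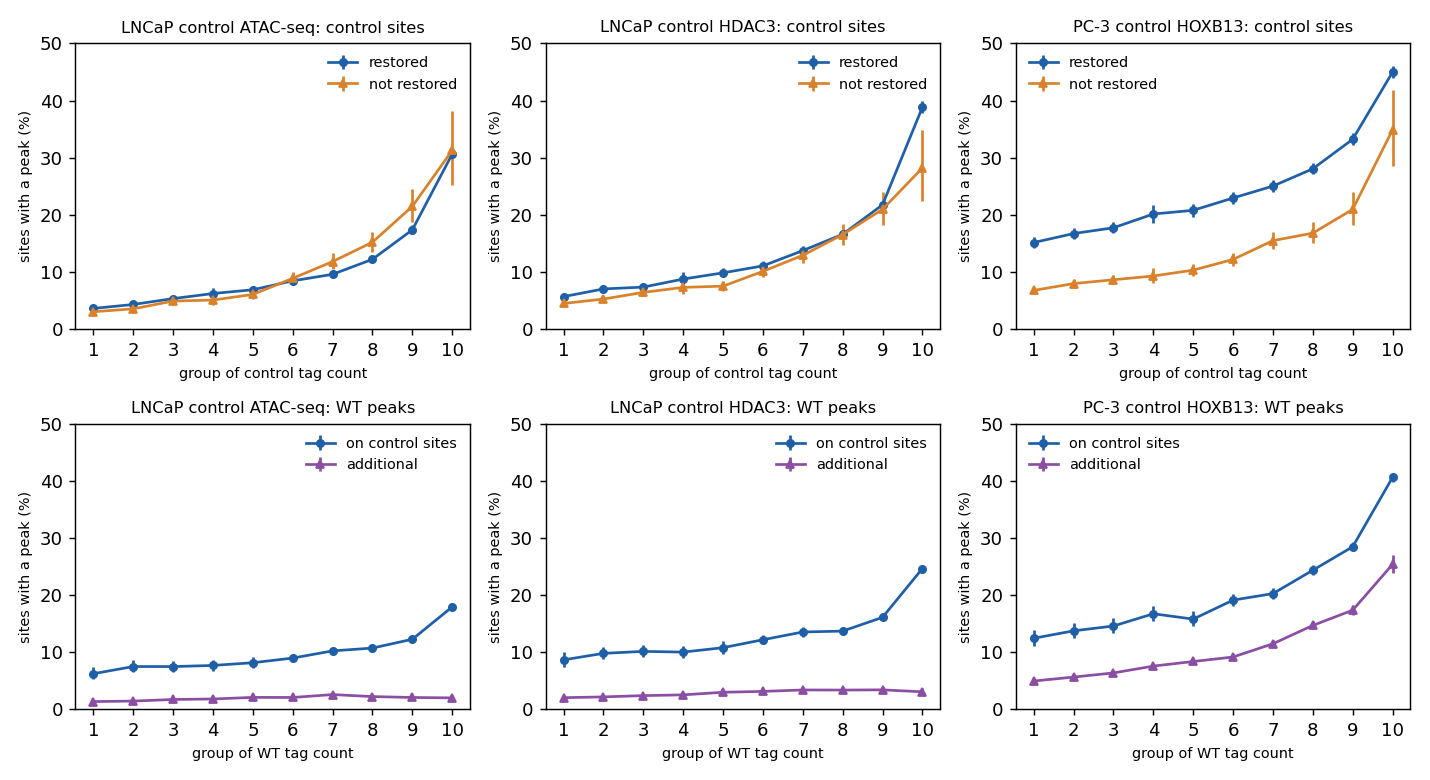
Percent of sites with a peak of another list (vertical) by group of tag count (horizontal, 1 weakest to 10 strongest), with 95% intervals. The upper row shows restored and not restored control sites, the lower row HOXB13-WT peaks on control sites and additional ones. The PC-3 HOXB13 lines stay apart in both rows. The ATAC lines of control sites cross, and the ATAC line of additional peaks stays near 2%.

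Scaled by all tags, restored sites were on average near the control level, with a wide spread. The log2 ratio of HOXB13-WT over control normalized tag counts had a median of 0.17 (95% CI 0.16 to 0.17, by order statistics), with -0.72 at the 5th and 1.28 at the 95th percentile, and 61.6% of sites were above 0. This direction rests on scaling by all tags. Scaled by the tags in peaks, which took up a larger part of the HOXB13-WT library, the median was -0.73. A log2 ratio of 1 or above was found at 6364 sites (10.3%) and one of -1 or below at 913 (1.48%). Scaled by the tags in peaks, 12.9% of sites were above 0, with 461 (0.748%) at 1 or above and 19556 (31.7%) at -1 or below, so the excess of rises over falls turned. Across groups of control level the median went from 0.45 (weakest) down to 0.05 (strongest). A site enters the ratio only when it is called again, which asks for more relative tags of a weak site than of a strong one.

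The ratio differed with the chromatin around the site. Of the 10778 restored sites with a PC-3 HOXB13 peak and neither ATAC nor HDAC3 in the control, the median log2 ratio was 0.34, and 17.0% rose by a log2 ratio of 1 or more (10.3% over all restored sites). At the 37758 sites with none of these it was 0.18, and 10.5% passed that value. With ATAC alone (2230 sites) the median was -0.01, and with ATAC, HDAC3 and PC-3 HOXB13 peaks together (2044 sites) it was also -0.01, with 2.64% at or above 1. Sites with HDAC1 were lower still. The 1189 restored sites with HDAC1 had a median of -0.14, with 3.70% at -1 or below against 1.48% over all restored sites. Within groups of control level each list was examined singly. The median was lower with ATAC, with HDAC3 and with HDAC1 than without in 10 of 10 groups each, and higher with PC-3 HOXB13 in 10 of 10. The combined classes were not compared within groups of control level. In the strongest group the medians were -0.05 with and 0.11 without ATAC, and -0.34 with and 0.07 without HDAC1. The ATAC and deacetylase lists were of the control cells, and chromatin in the re-expressing cells was not analysed here.

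**Figure D4:**
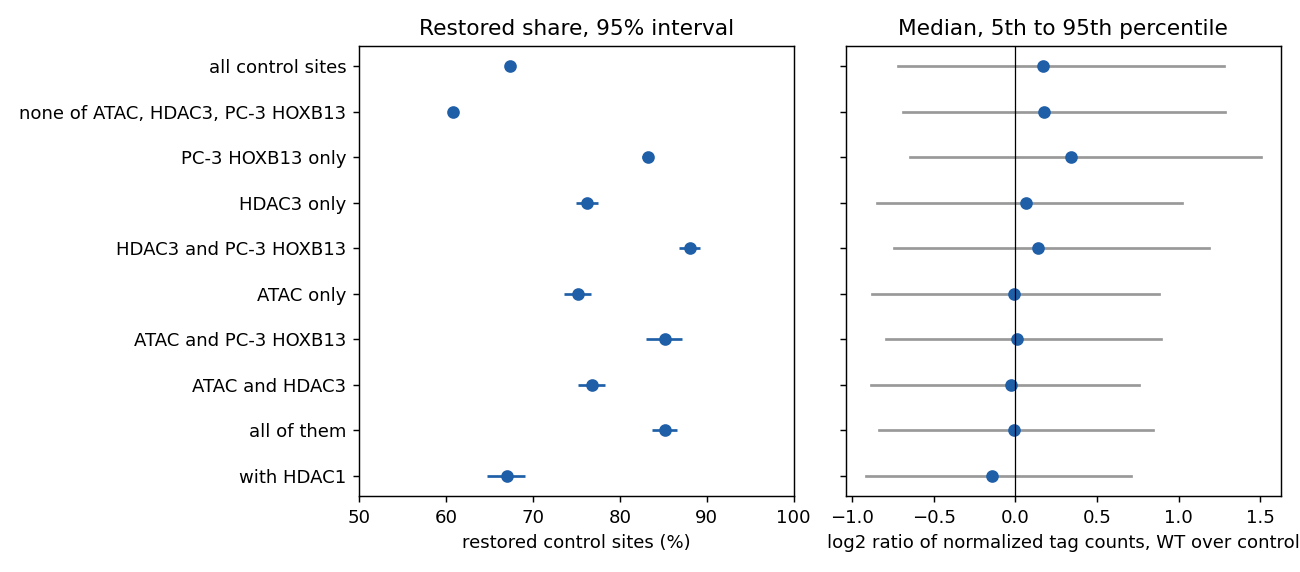
Control sites grouped by which of the ATAC, HDAC3 and PC-3 HOXB13 lists had a peak there, and sites with HDAC1. Left, percent restored with 95% intervals (axis from 50% to 100%). Right, median log2 ratio (HOXB13-WT over control tag counts) at restored sites, with lines from the 5th to the 95th percentile. Sites with PC-3 HOXB13 alone have 83.2% restored and the highest median, 0.34. Sites with HDAC1 have 67.0% and the lowest median drawn, -0.14.

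Single sites rose by up to 3.33 and fell as far as a log2 ratio of -3.22. Named regions lie on the autosomes or X and were called in fewer than 9 lists. The rises and falls were picked by this same ratio, and their intervals do not allow for that choice. The ratios are scaled by all tags, and scaling by the tags in peaks would lower each by 0.90. Coordinates are hg19, and the lists pair no peak with a gene. The largest rise was at chr9:77769179-77769469, with 6.98 normalized tags in the control (24 tags) and 70.0 with HOXB13-WT (282 tags; log2 ratio 3.33, 95% CI 2.72 to 3.99). It had no ATAC, HDAC3 or HDAC1 peak. At chr14:45517651-45517941 the values were 6.11 and 55.1 (log2 ratio 3.17, 2.53 to 3.89), and at chr3:58617893-58618183 they were 5.82 and 50.2 (3.11, 2.44 to 3.85). The next rises were at chr9:88954514-88954804 (8.15 and 66.3) and chr13:21259437-21259727 (6.40 and 47.4). None of the 5 overlapped an ATAC, HDAC3 or HDAC1 peak, and 3 of them had a PC-3 HOXB13 peak. Over all restored sites the shares were 12.1%, 16.1%, 1.93% and 26.3%, so most restored sites also lacked each of these peaks. All 5 had 5.82 to 8.15 normalized tags in the control and 47.4 to 70.0 with HOXB13-WT. With HOXB13-G84E they had 36.9 to 56.1, set against the same control counts. A control count that was low by sampling would give a rise with both forms. The HOXB13-G84E counts are therefore not independent evidence of a rise.

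The largest fall was at chr9:126031040-126031330, from 60.2 normalized tags in the control (207 tags) to 6.46 (26 tags; log2 ratio -3.22, 95% CI -3.87 to -2.63). That site stood 50.6-fold over its surroundings in the control and had ATAC, HDAC3 and HDAC1 peaks there, and ATAC and HDAC3 peaks were also called after knockdown. A control peak 5766 bp away had 11.6 normalized tags, and the HOXB13-WT peak over it 20.1. The second was at chr11:64053080-64053370, from 61.4 to 12.9 (log2 ratio -2.25, -2.72 to -1.81), inside PC-3 H3K27ac regions. The others were at chr8:6978557-6978847 (18.9 to 4.97), chr16:30963065-30963355 (16.0 to 4.22) and chrX:48024671-48024961 (16.9 to 4.47). With HOXB13-G84E the chr9 and chr11 sites had 7.47 and 6.79, those on chr8 and chrX 9.96 and 7.02, and the chr16 site no peak. The strongest restored sites stood only 4.23- to 6.82-fold over their surroundings and lay in PC-3 H3K27ac regions. At chr10:42400301-42400591 the counts were 968.8 in the control, 1435.5 after knockdown and 708.7 with HOXB13-WT, and at chr7:61970258-61970548 they were 881.8, 1325.8 and 745.7. At both, the count was highest in the library with the HOXB13 shRNA alone. The next 3 lay close together at chr6:58776429-58778926, with 678.1 to 726.1 in the control, 454.2 to 657.8 with HOXB13-WT and no knockdown peak. The strongest over all sequences, chr1:121485073-121485363, was called in all 12 lists, with 9132.2 in the control, 15711.1 after knockdown and 6661.7 with HOXB13-WT. No list was called against an input library, so HOXB13 binding and acetylation at these strongest sites were not shown.

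Levels in the control, knockdown and HOXB13-WT libraries could be compared at sites called in all 3. Scaled by all tags, the 887 on the autosomes and X had medians of 11.1, 6.14 and 10.7 normalized tags, and the knockdown value was the lowest of the 3 at 61.2% (95% CI 58.0 to 64.4). Without regions called in 9 or more lists the medians of the 584 left were 10.5, 5.72 and 10.2, and the knockdown value was lowest at 62.5%. They are few, since a knockdown peak lay at 1353 of the 91430 control sites. Tags in peaks were 9.17% of the control and 2.13% of the knockdown library. The fall of these medians after knockdown is given scaled by all tags only, so its direction also rests on that scaling. For the single sites below, the knockdown counts are likewise scaled by all tags only. The largest fall after knockdown was at chrX:88462180-88462470, with 66.9 in the control, 5.30 after knockdown and 104.3 with HOXB13-WT. Its log2 ratio of HOXB13-WT over control was 0.64 (95% CI 0.40 to 0.88), and -0.26 (-0.50 to -0.02) when scaled by the tags in peaks. The site at chr10:45169049-45169339 had 43.4, 5.72 and 63.3 (log2 ratio 0.55, 0.25 to 0.85, and -0.35, -0.65 to -0.05, when scaled by the tags in peaks). Sites at chr1:202349126-202349416 (41.6, 5.93 and 44.0), chr20:45417533-45417823 (47.7, 6.99 and 46.7) and chr5:136960655-136960945 (34.6, 5.30 and 37.5) had HOXB13-WT over control log2 ratios of 0.08, -0.03 and 0.11, whose intervals held 0, and of -0.82, -0.93 and -0.79 under the other scaling, whose intervals lay below 0. Whether a site came back to its control level therefore could not be told from these libraries. These 5 were chosen as the largest falls after knockdown among sites called in fewer than 9 lists, a choice made after the data were seen.

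A minority of the sites called not restored had a HOXB13-WT peak close by. The nearest HOXB13-WT peak was a median of 3479 bp away, and 5658 of the 29791 sites (19.0%) had one within 1 kb. The share within 1 kb went with control level, with 13.2% at the weakest and 42.6% (83 of 195) at the strongest sites. In that strongest group 84 of the sites not restored (43.1%) had a HOXB13-G84E peak, against 97.3% of the restored sites of the group. A knockdown peak lay at 23 (11.8%, 95% CI 7.99 to 17.1), against 4.13% of those restored sites. 

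The 5 strongest sites without an overlapping peak are given singly, and their knockdown peaks are not typical of the class, since a knockdown peak lay at 1.29% of all not restored sites. The first, at chr10:42391552-42391842, had 1431.5 normalized tags in the control and 997.8 with HOXB13-G84E, and stood only 4.07-fold over its surroundings, near the limit of 4 for being called. The second, at chr8:43826946-43827236, had 206.3 in the control and 207.0 after knockdown. At chr22:18879874-18880164 the values were 180.4 and 293.0, at chr21:9825962-9826252 they were 90.8 and 268.0, and at chr19:27812745-27813035 they were 62.0 and 46.8. None of these counts was set against an input library, so HOXB13 binding at these sites was not shown.

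Additional peaks were mostly weak and seldom at an ATAC peak of the control cells. That ATAC list held 37073 peaks 96 bp wide, with 2.46% of its tags in peaks. No ATAC list came from the re-expressing cells, so accessibility of these sites there was not measured. Their median distance to the nearest control peak was 10.2 kb. A control peak lay within 1 kb of 6.04% of them and within 10 kb of 49.3%. No distance was computed for randomly placed peaks, so whether they lay near or apart from control sites was not tested. Of the additional peaks 84.6% were at or above the control calling threshold of 4.66 normalized tags. At or above 2 times that level were 16366 (12.7%), and at or above 4 times 1230 (0.952%). An ATAC peak of the control lay at 1.86% of additional peaks and at 11.9% of HOXB13-WT peaks on control sites, a difference of 10.1 points (95% CI 9.80 to 10.3) that was 7.70 (7.41 to 7.99) when standardised over 10 groups of HOXB13-WT level. HDAC3 lay at 2.71% and 16.0%, and HDAC1 at 0.673% and 1.86%. All 3 were lower at additional peaks in 10 of 10 groups.

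With HOXB13-WT level the ATAC share of additional peaks changed little, and their PC-3 HOXB13 share grew, as it also did at peaks on control sites. From the weakest to the strongest group of HOXB13-WT level, the ATAC share of additional peaks went from 1.38% to 2.02% with a highest value of 2.60%, while on control sites it went from 6.25% to 17.9%. The PC-3 HOXB13 share of additional peaks went from 4.97% to 25.4% (23.8 to 27), and that on control sites from 12.4% to 40.6%. Over all groups it was 8.77% and 26.2%, lower at additional peaks in 10 of 10 groups. At the strongest 2822 additional peaks 57 had a control ATAC peak, 66 had one in the control or after knockdown (2.34%, 95% CI 1.84 to 2.96), 87 had HDAC3 and 716 a PC-3 HOXB13 peak. In 428 of them (15.2%) a control peak lay within 1 kb, and 161 (5.71%) met no other list. HOXB13-G84E, compared with the same control list, had a peak at 42.9% of all additional peaks, at 24.3% of the weakest group and at 2557 of the strongest 2822 (90.6%), against 97.9% of the strongest HOXB13-WT peaks on control sites. Because both comparisons share the control library, a site bound in the control but missed by its library counts as additional in each comparison that calls it.

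Among the strongest 5 additional peaks, 4 lay in PC-3 H3K27ac regions, which covered 7.43% of all additional peaks and 10.5% of the strongest group. They were at chr16:46391870-46392144 (453.4 normalized tags), chr8:46850527-46850801 (197.4), chr8:46842255-46842529 (128.6, with 227.1 after knockdown) and chr9:66833715-66833989 (114.7, with 111.7 after knockdown). Their fold over the surroundings ran from 4.08 to 16.2. As no input library was used, neither HOXB13 binding nor acetylation was shown at them. The other one, at chr12:79529222-79529496, met only the HOXB13-G84E list. It had 92.1 normalized tags with HOXB13-WT (371 tags, 41.4-fold over its surroundings) and 74.0 with HOXB13-G84E. The nearest control peak was 3.01 kb away with 6.40 normalized tags, and no peak of the other lists lay within 6 kb. The strongest additional peak over all sequences was on the mitochondrial sequence (798.3 normalized tags).

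HOXB13-WT peaks outnumbered control peaks most in windows with few control ATAC peaks. In 474 windows of 1 Mb with 0 to 2 control ATAC peaks there were 2.52 HOXB13-WT peaks per control peak, and in the 586 windows with 21 to 76 ATAC peaks 1.84. The ratio fell at each step between. The restored share rose over the same windows, from 63.6% (95% CI 62.6 to 64.5) to 69.2% (68.6 to 69.8). Control peaks numbered 19.8 per window at the low end and 36.9 at the high end, and additional peaks 37.3 and 42.3. The control peaks thus differed more between the ends. Additional peaks were most numerous between them, with 48.4 per window where there were 13 to 20 ATAC peaks. HOXB13-G84E gave 2.69 and 1.77 peaks per control peak in the same windows. The windows and their limits were chosen after the data were seen. Among chromosomes the ratio ran from 1.83 on chromosome 19, 1.87 on 22 and 1.87 on 17 to 2.42 on chromosome 13 and 2.72 on X. The restored share ran from 64.3% on chromosome 21 to 73.1% on X (95% CI 70.6 to 75.4), with 73.0% (69.9 to 76.0) on chromosome 22. X had the highest ratio, and its control peaks had a median of 6.98 normalized tags, against 7.28 over all chromosomes.

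**Figure D5:**
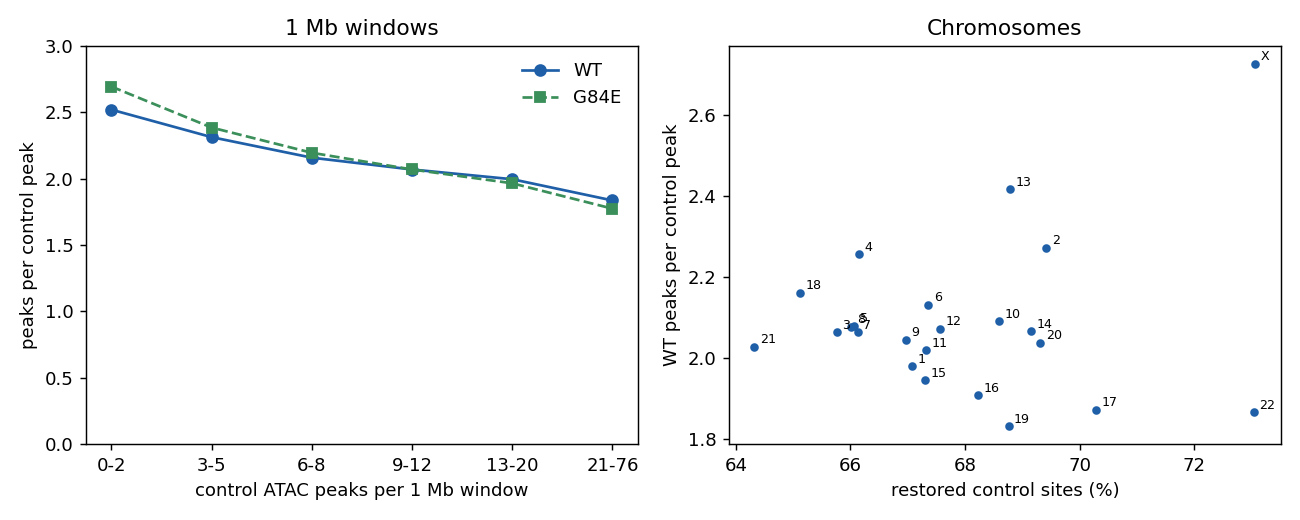
Left, HOXB13-WT and HOXB13-G84E peaks per control peak (vertical) in 1 Mb windows grouped by their number of control ATAC peaks (horizontal). Right, HOXB13-WT peaks per control peak against the percent of control sites restored, 1 point per chromosome, with axes that do not start at 0. The HOXB13-WT ratio goes from 2.52 to 1.84 across the windows, and X stands at 2.72 with 73.1% restored.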

How the data were processed

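HOXB13, HDAC1, HDAC3 and H3K27ac ChIP-seq and ATAC-seq peak lists of LNCaP and PC-3 cells were used, 12 lists from 16 samples, and 4 LNCaP H3K27ac samples were not analysed here. The submitters' processing notes name Bowtie2, HOMER 4.2 and hg19. Each library was called on its own by the authors with findPeaks, with no input library and a false discovery rate of 0.001, per the file headers. The signal in each deposited list is a normalized tag count per 10000000 tags, per the file headers. The deposited score and the deposited fraction of tags on their expected strand side were read, and the score served to rank peaks within a list. The deposited fold over the local 10 kb, a ratio, is the authors' value. Whole tags were recovered from normalized counts under 10 within 0.1 tags (100% of values).

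Groups came from the titles. Shares have Wilson, differences Newcombe and tag ratios exact Clopper-Pearson intervals, at 95%. Standardised differences weight 10 groups of tag count by their number of peaks, and level can still differ within a group. Where several peaks met 1 site the highest count was taken. Named regions were the 5 largest rises and falls (mean count at or above the control median) and the 5 strongest restored, not restored and additional peaks. Members, lists and alternatives were chosen with earlier results of these data known, and the 1 Mb windows and ratios by group of control level after these data were seen. Gene lists and sequences were not analysed here, since no hg19 sequence or annotation was used. Overlap, ratio and interval functions were tested on simulated data. Python 3.11.15, numpy 2.4.6, pandas 2.3.3, scipy 1.17.1 and matplotlib 3.10.9 were used.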

Additional observations from a re-analysis of the deposited data

How the results depend on the processing

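With centres within 100 bp, an overlap of 50% of the shorter peak, only the 50% of each list that scored better, equal numbers of peaks, a common floor of tag count, or no regions called in 9 or more lists, the restored share was 56.9%, 62.7%, 75.7%, 51.8%, 65.2% and 66.8%, against 67.4%. In the same order the additional share was 72.7%, 69.9%, 63.7%, 48.2% (fixed by the restored share at equal numbers), 64.0% and 68.4%, against 67.7%. The median log2 ratio was 0.19, 0.18, 0.20, 0.34, 0.19 and 0.18, against 0.17. It was 0.25 per bp of peak and turned to -0.73 when scaled by tags in peaks, whose share differed by 0.90 on the log2 scale. Without the common floor, the other 5 settings gave an ATAC difference between restored and not restored sites of 4.01, 4.88, 3.80, 6.48 and 3.75 points, against 5.63. For HDAC3 they gave 4.63, 6.94, 7.16, 9.17 and 6.11 points, against 8.16. For PC-3 HOXB13 they gave 14.5, 15.3, 15.5, 17.9 and 14.4 points, against 16.2. Standardised over control tag count, these differences were -0.680 (-1.47 to 0.106, which held 0), 2.06 and 10.0 points. Standardised likewise, a setting added after seeing the data, the difference in restored share with HDAC1 went from -15.9 to -6.30 points at ATAC sites and turned from 3.84 to -7.50 points at the others. Thus the restored share spans 51.8% to 75.7%, and the ATAC direction does not hold at equal level. No paired analysis was possible because each group held 1 library, and leaving out a library was not possible for the same reason. PCR reads without molecular identifiers are not independent molecules, so the intervals cover counting error only.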
